A study of Mus musculus with 2 samples.

Results

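The genes described here are 10 cytokine genes of activated T cells, namely Il2, Ifng, Il17a, Tnf, Osm, Lif, Lta, Ltb, Tnfsf14 and Tnfsf11. They were chosen by name as cytokines that antibodies against CD3 and CD28 induce, with earlier results of these data known. All 13 probe sets that the platform annotation gives to exactly 1 of these genes were read. The array holds 34945 probe sets of single genes. A further Il2 probe set, shared with Ntan1, is described apart. Mouse primary T cells were measured on 2 Affymetrix arrays. The stimulated array held RNA of cells that received anti-CD3/CD28 antibodies, and the triptolide array held RNA of cells that received the same antibodies and triptolide at 50 ng/ml. Purified cells were cultured for 18 h per the labels. Both groups were stimulated, so induction by the antibodies was not measured here, and strain, age, number of animals, length of the triptolide exposure and any vehicle in the stimulated group were not stated in the labels. Each group is 1 array, so no test between groups was possible. All values are MAS5 signals without replicates, and "higher" and "lower" describe these 2 arrays.

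A T cell that meets antigen receives signal through its antigen receptor, which contains CD3, and through the costimulatory receptor CD28. Calcium, kinase and NFκB signalling then bring NFAT, AP-1 and NFκB factors to cytokine promoters, and the cytokine mRNAs are made rapidly and are often short-lived. Triptolide, a diterpenoid from the plant Tripterygium wilfordii, binds the XPB subunit of the general transcription factor TFIIH and inhibits initiation by RNA polymerase II.

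With triptolide, 7 of the 10 cytokine genes were lower by 2-fold or more, 1 was higher by 2-fold or more and 2 lay within 2-fold. The lower genes were the T cell growth factor gene Il2, the macrophage-activating Ifng, the neutrophil-recruiting Il17a, the gp130-receptor cytokines Osm and Lif, and the lymphotoxin genes Lta and Ltb. The higher gene was Tnf. Over all 10968 detected genes, these shares were 12.5% for lower and 5.63% for higher genes, and the same shares serve as background for every gene list below. The median log2 ratio of the 10 cytokine genes was -1.53, and that of all detected genes was -0.16. All 10 were detected, meaning above a background floor of 118 on at least 1 array. By probe set, 8 of 13 passed the 2-fold line downwards and 1 upwards, against 12.8% and 5.69% of all detected probe sets of single genes. Among the brighter genes, those reaching at least 4 times the floor on 1 array, 15.8% were lower and 6.86% higher, and 9 cytokine genes fell in that class, 7 of them lower and 1 higher. Il2, Ifng, Il17a and Osm reached it only on the stimulated array, and Tnf and Tnfsf14 only on the triptolide array. The class thus depends on the signals compared, and these counts are no separate support. Lower genes made up 68.9% of all 2-fold differences as deposited, 82.1% after scaling on housekeeping genes, 58.2% after centring each array on its median and 51.0% after quantile normalization.

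**Figure D1:**
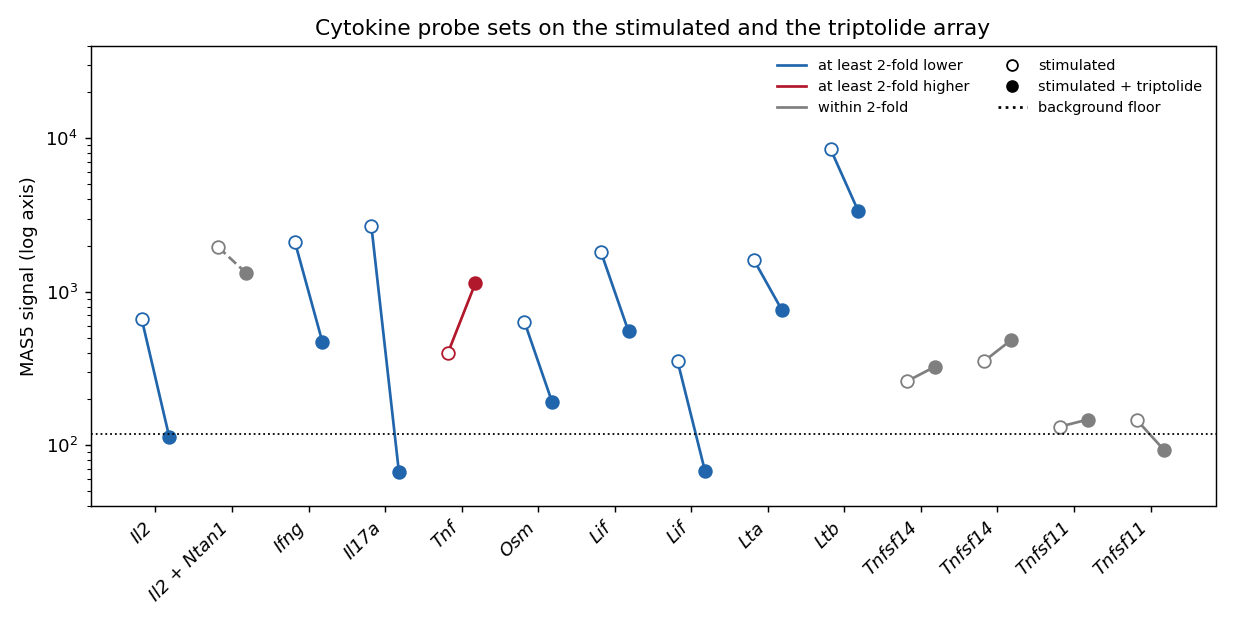
MAS5 signal (log axis) of each cytokine probe set without triptolide (open circles) and with it (filled circles), joined by a line coloured by the 2-fold rule, with the Il2 probe set shared with Ntan1 dashed. The dotted line is the background floor of 118, under which the triptolide signals of Il2, Il17a, 1 Lif and 1 Tnfsf11 probe set lie, and Tnf is the only probe set whose line climbs past 2-fold.

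The T cell identity of the material was checked on 14 marker genes, of which 11 were on the array under a symbol of their own. All 11 were above the floor on both arrays, among them Cd3d, Cd3e, Cd3g, Cd4 and Cd8a (median log2 ratio -0.50). At least 2-fold lower with triptolide were 4 of the 11, namely Cd2 (-1.34), Lat (-1.32), Cd4 (-1.28) and Cd8a (-1.60). The 5 probe sets of Cd8a lay between -1.61 and 0.17. Of the markers of other cells, 8 of 9 B cell genes were detected, whose signals summed to 5389 without and 3446 with triptolide, Ighm alone giving 3482 and 1805. Of 12 monocyte and macrophage genes 5 were detected, whose signals summed to 1040.6 and 1143, and Cd14, Itgam, Fcgr3 and Tlr4 were under the floor on both arrays. Natural killer genes had 3 of 5 members detected, neutrophil genes 3 of 6, mast cell and basophil genes 2 of 6 and dendritic cell genes 1 of 6. The natural killer genes detected were Eomes (1380.5 without and 1380.4 with triptolide), Klrk1 (245.6 and 182.8) and Klre1 (182.6 and 172.4). Ncr1 and Klra8 were under the floor on both arrays. Eomes is also among the transcription regulators described below. In bulk RNA, fewer cells of a type and less RNA per cell cannot be told apart.

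The promoter windows of Il2, Ifng, Il17a and Tnf are shown because triptolide acts at transcription initiation and because these genes include the 3 lowest ratios and the highest one among the cytokines. Each window runs 5′ to 3′ on the gene's strand, from 250 bases before to 50 bases after the annotated start (RefSeq, GRCm38.p6). Capitals mark matches, on either strand, to a TATA box (TATAAA), the NFAT core (GGAAA), AP-1 (TGANTCA), the cAMP response element (TGACGTCA) and the NF-κB consensus.
Il2 promoter, chr3:37125905-37126204, minus strand: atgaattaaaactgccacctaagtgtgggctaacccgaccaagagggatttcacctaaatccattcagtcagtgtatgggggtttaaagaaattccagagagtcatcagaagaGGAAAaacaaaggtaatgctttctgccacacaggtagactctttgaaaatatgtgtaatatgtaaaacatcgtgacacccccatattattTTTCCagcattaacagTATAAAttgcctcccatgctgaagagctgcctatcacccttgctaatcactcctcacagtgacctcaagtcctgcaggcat
Ifng promoter, chr10:118440796-118441095, plus strand: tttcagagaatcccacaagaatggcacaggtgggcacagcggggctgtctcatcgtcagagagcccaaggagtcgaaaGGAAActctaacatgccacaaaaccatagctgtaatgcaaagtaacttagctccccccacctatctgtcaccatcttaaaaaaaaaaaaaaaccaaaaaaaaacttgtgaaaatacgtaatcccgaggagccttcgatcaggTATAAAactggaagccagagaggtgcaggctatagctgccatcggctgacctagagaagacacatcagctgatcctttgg
Il17a promoter, chr1:20730655-20730954, plus strand: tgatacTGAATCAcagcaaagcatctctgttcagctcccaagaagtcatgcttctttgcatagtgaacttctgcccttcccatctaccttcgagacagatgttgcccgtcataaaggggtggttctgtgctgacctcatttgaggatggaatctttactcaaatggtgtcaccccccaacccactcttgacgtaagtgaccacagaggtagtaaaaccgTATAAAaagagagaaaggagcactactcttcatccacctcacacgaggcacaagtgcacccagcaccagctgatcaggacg
Tnf promoter, chr17:35201958-35202257, minus strand: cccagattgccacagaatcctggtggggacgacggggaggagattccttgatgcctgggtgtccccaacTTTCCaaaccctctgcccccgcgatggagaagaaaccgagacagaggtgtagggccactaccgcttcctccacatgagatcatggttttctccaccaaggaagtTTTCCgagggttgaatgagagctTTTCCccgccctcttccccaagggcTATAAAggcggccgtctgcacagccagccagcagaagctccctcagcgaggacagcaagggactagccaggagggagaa
Each of these windows held TATAAA on the sense strand, beginning 31 bases before the start in Il2 and Il17a, 30 in Ifng and 29 in Tnf. Of all 32851 promoter windows in the table, 1.99% had such a match beginning 40 to 20 bases before the start. The match was thus present in the 3 genes that were lower and in the 1 that was higher. Of the 9 cytokine genes with a window, 4 had it at that place and 6 held TATAAA somewhere on either strand, against 13.6% of all windows. The NFAT core was found in 8 of 9 windows, where 61.3% of all windows hold it, and Il17a was the one without. Tnf had 3 matches to it, all on the antisense strand, Il2 had 2 and Ifng had 1. AP-1 matched in 3 of 9 windows (Il17a, Lif and Tnfsf14) against 7.81% of all. The NF-κB consensus matched in 2 of 9, in Lif on both strands at the same place and in Ltb where it overlaps an NFAT core, against 8.46% of all. No window held the cAMP response element, which 1.79% of all windows hold. A match says only that the letters are present, and no factor was measured at these promoters.

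**Figure D2:**
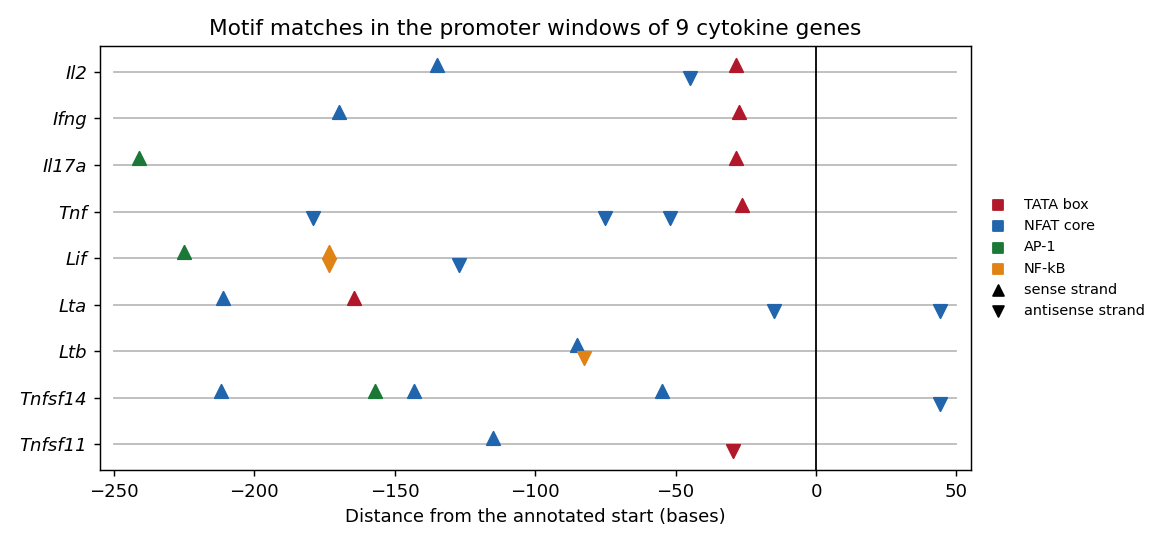
Motif matches in the promoter windows of 9 cytokine genes, by distance from the annotated start in bases, with sense-strand matches as upward and antisense-strand matches as downward triangles. TATA box matches (red) sit about 30 bases before the start in Il2, Ifng, Il17a and Tnf on the sense strand, while the one of Lta begins 167 bases before it and that of Tnfsf11, 32 bases before it, is on the antisense strand.

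Il2 encodes interleukin-2, which drives the clonal expansion of T cells. Its own probe set had a signal of 664.5 without triptolide and 113 with it, the latter just under the floor. It was therefore at least 5.61-fold lower, and 49 of the 10968 detected genes had a lower log2 ratio. Of these 10968 genes, 8677 were above the floor on both arrays, and the others were ranked at their bounds. Dim genes cannot reach a large ratio this way, so such ranks, here and below, depend on brightness as well as on the difference. The Il2 probe set shared with Ntan1 read 1953 without and 1329.7 with triptolide, 1.47-fold lower. Ntan1, which encodes an amidase of the N-degron pathway, had a probe set of its own at 1871 and 908, 2.06-fold lower. The call ended in 4 of 10 alternatives. Log2 ratios ran from -0.86 to -1.24 on its own probe set, and the value was -0.55 where the shared probe set represented Ntan1. The shared probe set was above the floor on both arrays and cannot be assigned to either gene, so it was left out of the Il2 value.

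Ifng encodes interferon-γ, the main cytokine of type 1 helper and cytotoxic T cells. Its single probe set read 2124 on the stimulated and 472 on the triptolide array, both above the floor, a 4.50-fold lower signal. This was the lowest ratio among the cytokine genes measured above the floor on both arrays, and 103 detected genes were lower still. Il17a encodes interleukin-17A, the cytokine of Th17 and some γδ T cells. It read 2696 in the stimulated cells and 67.0 in those given triptolide, the second below the floor, and was at least 22.8-fold lower. Only 2 detected genes had a lower ratio than this bound.

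Tnf encodes tumour necrosis factor, which T cells and myeloid cells secrete. It went the other way, from 398 without triptolide to 1139.8 with it, 2.86-fold higher, and 222 of 10968 detected genes had a higher ratio. Its log2 ratio lay 3.69 above that of Ifng, a gap that does not depend on the single factor by which MAS5 scales each array, since both genes were above the floor on both. Among the myeloid markers Lyz2 was 72.2 without and 259.5 with triptolide, at least 2.19-fold higher (within 2-fold at 0.95 on the log2 scale with a floor at the 99th percentile), Adgre1 had a log2 ratio of 0.68 and Mpeg1 was at least 2.89-fold lower, from 342 to 117. Csf1r and Cd68, the other myeloid markers detected, had log2 ratios of 0.08 and 0.17. The part of myeloid cells in the Tnf signal was not tested.

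**Figure D3:**
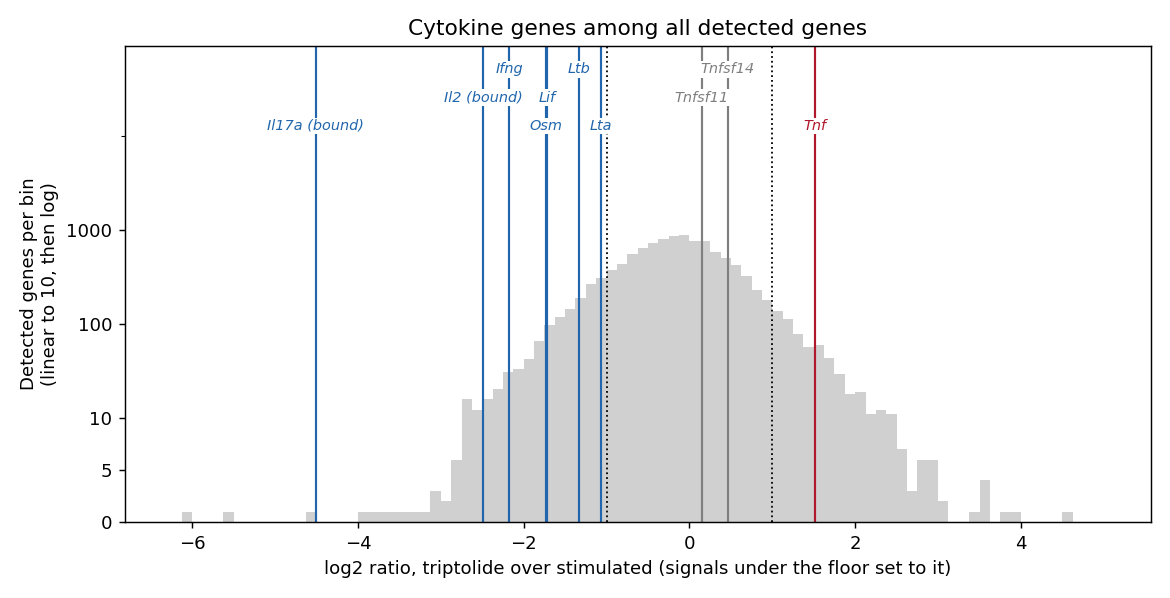
Histogram of the log2 ratio (triptolide over stimulated, signals under the floor set to it) of all 10968 detected genes, on a count axis that is linear to 10 and logarithmic above, with the 10 cytokine genes as vertical lines and dotted lines at 2-fold. Il17a lies far in the left tail at its bound of -4.51, 6 further cytokine genes lie left of the 2-fold line, and Tnf stands at 1.52 on the right.

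Osm and Lif encode oncostatin M and leukemia inhibitory factor, 2 cytokines that signal through receptor complexes containing gp130. Osm read 637 without and 192 with triptolide, 3.32-fold lower. Lif read 1815 and 551 on its brighter probe set, 3.30-fold lower. On its other probe set Lif read 353 and 67.4, the second under the floor, at least 2.99-fold lower. The log2 ratios of Osm and the brighter Lif probe set differed by 0.01. The SD of a single log2 ratio was 0.49. It is the SD of the difference between 2 probe sets of a gene, over 3733 genes, divided by the square root of 2. The SD of a difference between 2 ratios is therefore larger than 0.49. The SD of 0.49 covers probe behaviour and not the variation between cultures.

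Lta and Ltb encode lymphotoxin-α and lymphotoxin-β, which form the membrane-bound heterotrimer that lymphoid tissue needs for its organization. Lta read 1603 on the stimulated and 764.5 on the triptolide array, 2.10-fold lower, close to the 2-fold line. It lay within 2-fold in 3 alternatives, with log2 ratios of -0.94 after median centring, -0.87 after quantile normalization and -0.98 with a pseudocount. Ltb read 8483 and 3364, 2.52-fold lower, and the log2 ratios of both genes differed by 0.27. Tnf lay 2.58 above Lta and 2.85 above Ltb on the log2 scale.

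Tnfsf14 and Tnfsf11, the remaining TNF superfamily genes, lay within 2-fold. Tnfsf14 encodes LIGHT, a ligand of the lymphotoxin-β receptor and of HVEM. It read 351 without and 484.5 with triptolide on the brighter probe set and 261 and 324 on the other, with log2 ratios of 0.47 and 0.31. Tnfsf11 encodes RANKL, which drives osteoclast formation. Its 2 probe sets went opposite ways near the floor, from 132 to 147 and from 146 to 92.4, so no direction is given.

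Several of the genes are neighbours in the genome, and the genes beside them were looked up in the RefSeq order of protein-coding genes (GRCm38.p6) after the cytokine values had been seen. Tnf lies between Ltb and Lta on chromosome 17, in the class III part of the major histocompatibility complex, and it was higher while both flanking genes were lower. Beyond Ltb, Lst1 was 2.25-fold lower (362 to 161) but within 2-fold after quantile normalization (-0.94) and with the pseudocount (-0.82), and beyond Lta, Nfkbil1 was within 2-fold at a log2 ratio of 0.76 (232 to 393). Ddx39b, an RNA helicase gene further along, had 0.51 on its brightest probe set and up to 1.10 on another. Prrc2a on the other side had 0.39 on its brightest probe set and 0.04 on its other. Osm and Lif are adjacent on chromosome 11, and of the 6 genes around them 3 were at least 2-fold lower on their brightest probe sets, none was higher and 3 lay within 2-fold. Over all detected genes, 12.5% were lower and 5.63% higher, and 6 genes are too few to set against these shares. Castor1, an arginine sensor of the mTORC1 pathway, was 4.18-fold lower (1169.7 to 279.7). Mtmr3, a phosphoinositide phosphatase gene, was 3.24-fold lower (2278 to 703.5), with 3 probe sets between -2.06 and -0.71. The splicing factor gene Sf3a1 was 2.35-fold lower (1912 to 815), with log2 ratios of -1.23 and -0.66 on its 2 probe sets, whose median of -0.95 is within 2-fold. Tbc1d10a and Ascc2 had log2 ratios of -0.53 and -0.43 on their brightest probe sets, but the other Tbc1d10a probe set was at 0.51. Hormad2, next to Lif, went the other way, from 29.8, under the floor, to 157, a log2 ratio of at least 0.40. Beside Il2, Il21 was under the floor on both arrays. Beside Ifng, Dyrk2 and Cand1 had log2 ratios of -0.21 and -0.16.

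**Figure D4:**
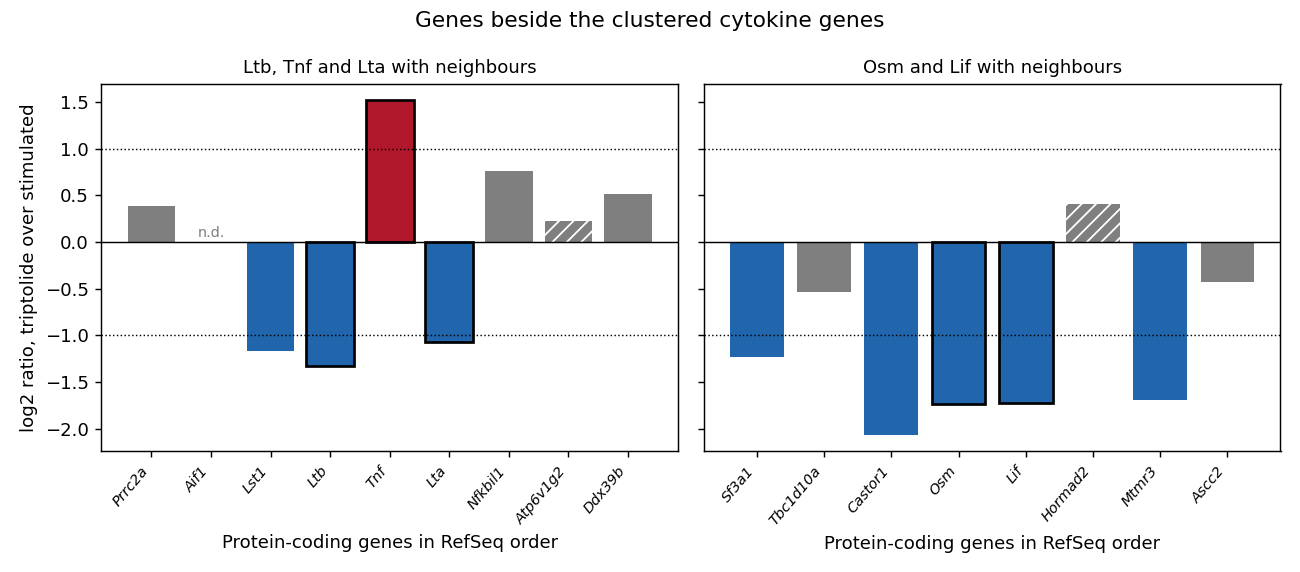
Log2 ratio (triptolide over stimulated) of protein-coding genes in RefSeq order around Ltb, Tnf and Lta (left) and around Osm and Lif (right), with the cytokine genes outlined, lower bounds hatched, n.d. for a gene under the floor on both arrays and dotted lines at 2-fold. Tnf at 1.52 stands between Ltb at -1.33 and Lta at -1.07, and Osm and Lif, both near -1.7, have Castor1 at -2.06 beside them.

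Other cytokine genes were mostly below the floor. Of 34 on the array, 20 were not detected on either array, among them Il3, Il5, Il6, Il9, Il21 and Csf2. Of the 14 detected, 2 passed the 2-fold line downwards and none upwards, with a median log2 ratio of -0.04. Some, such as Il4, Il10, Il13 and Il24, stayed under 2 times the floor on both arrays. With dimmer signals raised to the floor, these could not pass 2-fold, which also draws the median towards no difference. Without a floor, 5 of the 14 were lower and 3 higher. Tgfb3, a TGF-β family gene, was at least 5.38-fold lower (637 to 58.9). Il16, which encodes the precursor of a lymphocyte chemoattractant, was 3.17-fold lower (1897 to 597), with 3 detected probe sets between -1.67 and -0.18. The brightest genes within 2-fold were Mif at a log2 ratio of -0.03 and Tgfb1 at -0.38. The type 2 cytokine gene Il13 read 213 without and 30.4 with triptolide, at least 1.80-fold lower. Of 7 other TNF superfamily ligand genes detected, none was lower by 2-fold and 2 were higher. Tnfsf13b, the B cell survival factor BAFF, was at least 2.99-fold higher (73.7 to 354), and Tnfsf4, the OX40 ligand, was 2.08-fold higher (234 to 487), a call that ended when scaled on housekeeping genes (0.86) and with the pseudocount (0.81). The death ligand gene Fasl had a log2 ratio of -0.99 (553 to 279) and Tnfsf8 of -0.31.

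Of 9 detected receptor genes for these cytokines, 4 passed the 2-fold line downwards and none upwards, with a median of -0.26. Il2rb, the signalling β chain of the IL-2 receptor, was 3.75-fold lower (6706 to 1786) with its 2 probe sets at -1.93 and -1.91. Both chains of the interferon-γ receptor were lower, Ifngr2 by 3.05-fold (867 to 285) and Ifngr1 by 2.36-fold (2148 to 909). Il6st, the gp130 chain shared by the receptors of Osm and Lif, was 2.21-fold lower, with 4 probe sets between -1.66 and -0.68, and just within 2-fold after quantile normalization (-0.94) and with the pseudocount (-0.995). Il17ra had a log2 ratio of 0.66. The 2 probe sets of Il2ra, the α chain of the IL-2 receptor, disagreed at -0.26 and 2.26. Osmr, Lifr, Ltbr and Tnfrsf14 were under the floor on both arrays.

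**Figure D5:**
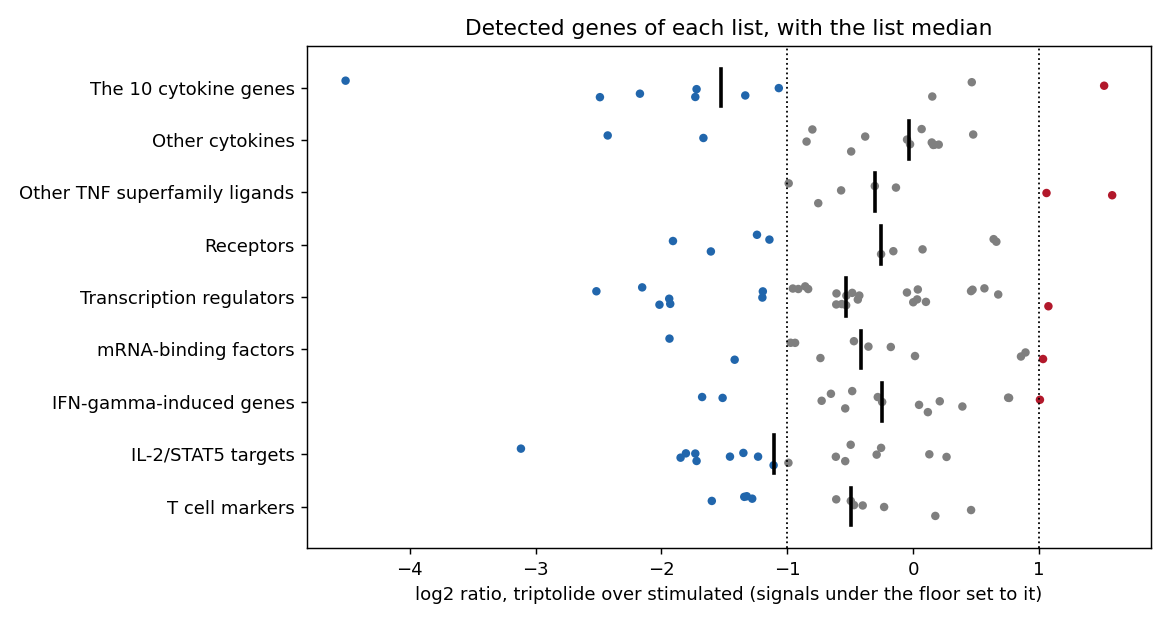
Log2 ratio (triptolide over stimulated) of every detected gene in 9 of the lists, coloured as at least 2-fold lower (blue), at least 2-fold higher (red) or within 2-fold (grey), with the list median as a black bar and vertical jitter for visibility. The medians of the 10 cytokine genes (-1.53) and of the IL-2 and STAT5 target list (-1.11, which holds Osm and Lif too) lie left of the -1 line, and those of the 7 other lists drawn (other cytokines, other TNF superfamily ligands, receptors, transcription regulators, mRNA-binding factors, interferon-γ-induced genes and T cell markers) lie between -0.53 and -0.04.

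Genes known to be controlled by IL-2 through STAT5 were described beside Il2. Of 17 detected, 9 passed the 2-fold line downwards and none upwards. The list holds Osm and Lif, and without them 7 of 15 were lower, with a median of -0.99. Gzmb, which encodes the cytotoxic protease granzyme B, was 8.67-fold lower (30515 to 3519), the kinase gene Pim2 3.50-fold (16051 to 4591) and the IL-7 receptor gene Il7r, which IL-2 represses, 3.60-fold (1993 to 554). Cish, a STAT5-induced feedback inhibitor named here after its value was seen, was 2.55-fold lower (5372 to 2108). The D-type cyclin gene Ccnd2 had a log2 ratio of 0.26. The list pools genes that IL-2 induces with genes that it represses, such as Il7r, so its count of lower genes mixes both. The part of Il2 in these values was not tested. Genes known to be induced by interferon-γ were described beside Ifng, and of 15 detected, 2 passed the 2-fold line downwards and 1 upwards, with a median of -0.25. Cxcl10 was 3.20-fold lower (581 to 182) and the transcription factor gene Irf8 2.86-fold (7787 to 2726), while the GTPase gene Iigp1 was 2.01-fold higher (2262 to 4544). Iigp1 lay at the line itself, and its log2 ratio was 0.80 when scaled on housekeeping genes and 0.98 with the pseudocount, both within 2-fold. The brightest members within 2-fold, B2m and Gbp2, had log2 ratios of 0.21 and -0.25. The part of Ifng in these values was not tested.

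Of 29 detected genes for factors that act at cytokine promoters or enhancers, 7 passed the 2-fold line downwards and 1 upwards, with a median of -0.53. The lowest were Ikzf3, which encodes Aiolos (5.72-fold, 1948 to 340), Runx3, a factor of cytotoxic and type 1 helper T cells (4.45-fold, 3029 to 681), Bhlhe40 (4.04-fold, 6761 to 1672) and the NFκB subunit gene Rel (3.83-fold, 1705 to 445). The AP-1 gene Fosl1 was at least 2.10-fold higher (24.3 to 249), and at least 0.89 on the log2 scale with a floor at the 99th percentile. Stat3 and Irf4, the brightest within 2-fold, had log2 ratios of -0.53 and 0.10, but their other probe sets reached -1.55 and -1.72. Of 12 genes for proteins that bind cytokine mRNAs, 2 were lower and 1 higher, with a median of -0.41. Zfp36l2, which promotes decay of AU-rich mRNAs, was 3.83-fold lower (6335 to 1655.5) on its brightest probe set. Its 2 detected probe sets had log2 ratios of -1.94 and -0.77, the second within 2-fold. Hnrnpd, which encodes AUF1, was 2.67-fold lower (6270.5 to 2346). Rc3h2, a Roquin gene, was 2.04-fold higher by its brightest reading, with 4 detected probe sets between -0.14 and 1.68. The call ended in 3 of 10 alternatives (0.83 when scaled on housekeeping genes, 0.97 with the pseudocount). Zfp36l1 had a log2 ratio of -0.18, and Elavl1 had -0.94 on its brightest probe set and up to 1.19 on another.

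For Ifng and Tnf the genes with the nearest pair of log2 signals were looked up among 10967 others. With 2 arrays this likeness carries only a signal level and a difference, and signal levels of different probe sets do not compare amounts of mRNA. Nearest to Ifng were Ak4 and Seh1l, at Euclidean distances of 0.04 and 0.11. Nearest to Tnf were Apmap and Slc39a1, at 0.05 and 0.07. Il2 and Il17a were under the floor with triptolide, so no nearest genes are given for them.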

How the data were processed

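The authors deposited MAS5 signal intensities on a linear scale, 1 per probe set and array (tool named in the submitters' processing notes, with no version, scaling or detection calls stated). They were used as deposited for 45037 probe sets, named through the platform annotation and RefSeq GRCm38.p6. A gene was represented by its brightest probe set. The floor of 118 is the higher of both arrays' 95th percentiles over 87 probe sets of chemosensory receptor genes. Dimmer signals were raised to the floor before taking log2 ratios, and a fold with 1 side at the floor is a lower bound. With 1 array per group, which limits the precision, a fold of 2 was counted and nothing was tested. Scripts (Python 3.11.15, pandas 2.3.3) were tested on simulated data. Genes, lists and rules were chosen with earlier results of these data known. The text names, per list, up to 4 genes per direction past 2-fold and the 2 brightest within it, and further genes were picked after their values were seen. Alternatives were 3 scalings, 2 other floors, no floor, a pseudocount of 100, 3 choices of probe sets and a fold of 1.5.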

Additional observations from a re-analysis of the deposited data

How the results depend on the processing

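The count of cytokine genes at least 2-fold lower was 7 as reported and 6 after median centring, after quantile normalization, with a pseudocount of 100 (Lta crossing the line each time) and when probe sets of several genes were counted (Il2 crossing it). It was 7 in the other alternatives, and Tnf was the only gene counted as higher in each of them, with log2 ratios between 1.31 and 1.73. The median log2 ratio of the 10 genes was -1.73 when scaled on housekeeping genes, -1.35 after quantile normalization, -1.32 with the pseudocount and -1.20 with probe sets of several genes counted. Il2 had -1.84 with the pseudocount and -0.55 when represented by the probe set shared with Ntan1. Il17a had -5.33 without a floor, from a triptolide signal that background cannot be told from. Across the alternatives Ifng stayed between -2.37 and -1.96, Osm between -1.93 and -1.34, Lif between -1.92 and -1.52 and Ltb between -1.54 and -1.20, while Tnfsf11 took both signs (-0.07 to 0.34). The other scalings moved the median of all detected genes from -0.16 to -0.34 (housekeeping), -0.05 (median centring) and 0.00 (quantile). Over all detected genes, 2955 were lower and 1470 higher at 1.5-fold, against 1370 and 618 at 2-fold. Of the counts for the other lists, 32 of 154 moved by over 1.5 times or to or from 0. The count of lower genes ran from 7 to 13 for transcription regulators (11 when scaled on housekeeping genes, 13 at 1.5-fold), from 1 to 5 for mRNA-binding factors and from 2 to 5 for other cytokines. The count of higher genes went to 0 for interferon-γ-induced genes and to 1 for other TNF superfamily ligands when scaled on housekeeping genes and with the pseudocount, and ran from 0 to 3 for mRNA-binding factors. No paired analysis was possible because each group is 1 array, and no replicate could be left out. Signals near the floor (Tnfsf11, and Il2 and Il17a with triptolide) carry only bounds or no direction.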
